A study of Rattus norvegicus with 3 samples.

Results

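The constitutive proteasome is described here by the RNA of 42 genes. They are the alpha ring (PSMA, 7 genes), the beta ring (PSMB, 7 genes), the ATPases (PSMC, 6 genes), the non-ATPase proteins of the regulatory particle (PSMD, 13 genes), the activators (PSME, 4 genes) and a class of 5 genes that holds the inhibitor PSMF1 and the assembly chaperones PSMG1 to PSMG4. They were chosen by symbol alone, as the letters PSM, a letter from A to G and a number, without the immunoproteasome subunits PSMB8, PSMB9 and PSMB10. Of the 12758 symbols in the table, 45 matched. The 3 left out after matching are no part of the proteasome: PSMC3IP is a cofactor of meiotic recombination, PSME1-PS1 is a pseudogene, and PSME3IP1 encodes a protein that binds PSME3. Their FPKM went from 26.3 to 33.6, from 16.7 to 24.4 and from 312 to 316, respectively. PSMA8, PSMB11 and PSMD10 had no entry under these symbols and were not analysed here.

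The RNA came from spinal cord of female Sprague Dawley rats, 3 months old. All animals had a laminectomy at T9. The No-SCI group had no more than that, and the SCI group also received a contusion of 250 kdyne. Tissue of about 2 mm just rostral to the injury was taken 24 h later, digested with a protease active in the cold, and spun to pellet the cells, and the supernatant was sequenced as the acellular fraction. By the labels, No-SCI has 2 libraries and SCI has 1, while the methods name 2 animals per condition.

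Each gene has 1 value per group, the authors' FPKM (fragments scaled by the length of the transcript and by the size of the library). For that size the paper names the total of mapped reads, and it also names upper quartile normalization. No value per library and no read count was used here. How far animals differed, and how many reads stand behind a value, is not known from it, and no difference given here was tested. A gene is counted as higher or lower when its FPKM differed by at least 1.3-fold, the minimum that the study's methods set. Over all 12771 entries the log2 ratio of SCI over No-SCI had a median of -0.12, with the middle 50% between -0.61 and 0.37. Centring that median at 0 would move every log2 ratio up by 0.12.

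The proteasome is the protease that degrades proteins tagged with ubiquitin. Its barrel, the 20S core, is built of stacked rings of alpha and beta subunits, and the peptide bonds are cut inside the barrel by the beta subunits PSMB5, PSMB6 and PSMB7. The 19S regulatory particle sits on the ends of the barrel, where non-ATPase subunits bind and remove ubiquitin and a ring of ATPases unfolds the protein and feeds it in. Cells keep the subunits in balance, and neurons use the system at synapses and in axons, where it takes part in protein turnover and in the degeneration of cut axons.

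The proteasome genes as a group stood at moderately high levels and were mostly higher after SCI. Their median FPKM was 57.8 in No-SCI and 71.4 in SCI, higher than 76.2% and 80.7% of all entries in those groups. Of the 42 genes, 30 had a log2 ratio above 0, against 43.7% of all entries. At least 1.3-fold higher were 16 of them (38.1%), where 24.6% of all entries were. At least 1.3-fold lower were 0 of the 42, where 35.7% of all entries were. At least 1.5-fold higher were 6 of the 42, a smaller share than the 16.9% of all entries. At least 1.5-fold lower were 0 of the 42, where 26.3% of all entries were. None was 2-fold different in either direction, although 7.96% of all entries were at least 2-fold higher and 12.1% at least 2-fold lower. With the ratios centred on the median of all entries, 22 of the 42 were at least 1.3-fold higher (30.2% of all entries) and 0 at least 1.3-fold lower (30.3% of all entries). The median log2 ratio of the 42 genes was 0.33, or 0.45 relative to the median of all entries. Their log2 ratios lay in a narrow band, from -0.27 for PSME4 to 0.70 for PSMA5. The SD of the log2 ratios was 0.30 over the 42 genes and 0.85 over all entries. Of all entries, 41.2% had a lower ratio than the lowest of the 42 genes and 13.4% a higher one than the highest.

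**Figure D1:**
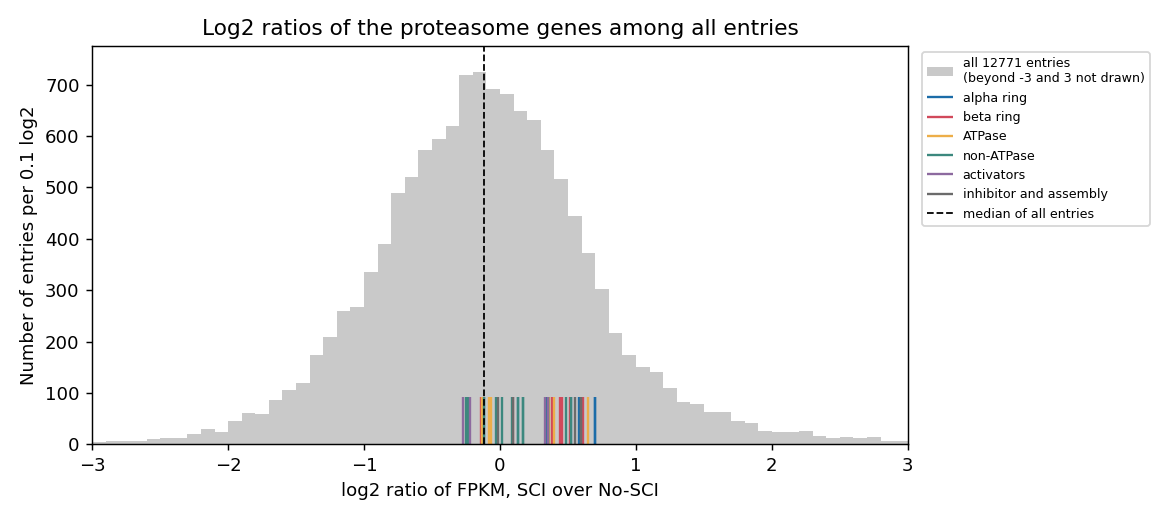
Histogram of the log2 ratio of FPKM, SCI over No-SCI, for all 12771 entries (grey bars, number of entries per 0.1 log2), with each of the 42 proteasome genes as a short coloured line by class and the median of all entries, -0.12, as a dashed line. The proteasome genes occupy the band from -0.27 to 0.70, and 35 of the 42 lie above the dashed line.

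The order of the levels was largely kept between the groups. Across the 42 genes the log2 levels in No-SCI and SCI had a Pearson correlation of 0.98, against 0.93 across all entries. The values being compared share their gene models and transcript lengths, so this is a description of the table. PSMC1 with 452 FPKM, PSMB1 with 383 FPKM and PSMG4 with 298 FPKM were the most abundant in No-SCI. In SCI the leading genes were PSMB1 with 500 FPKM, PSMG4 with 451 FPKM and PSMC1 with 432 FPKM. PSME2 was the least abundant in both groups, with 5.35 and 6.74 FPKM. Without the spread between animals, neighbours in this order cannot be said to differ.

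**Figure D2:**
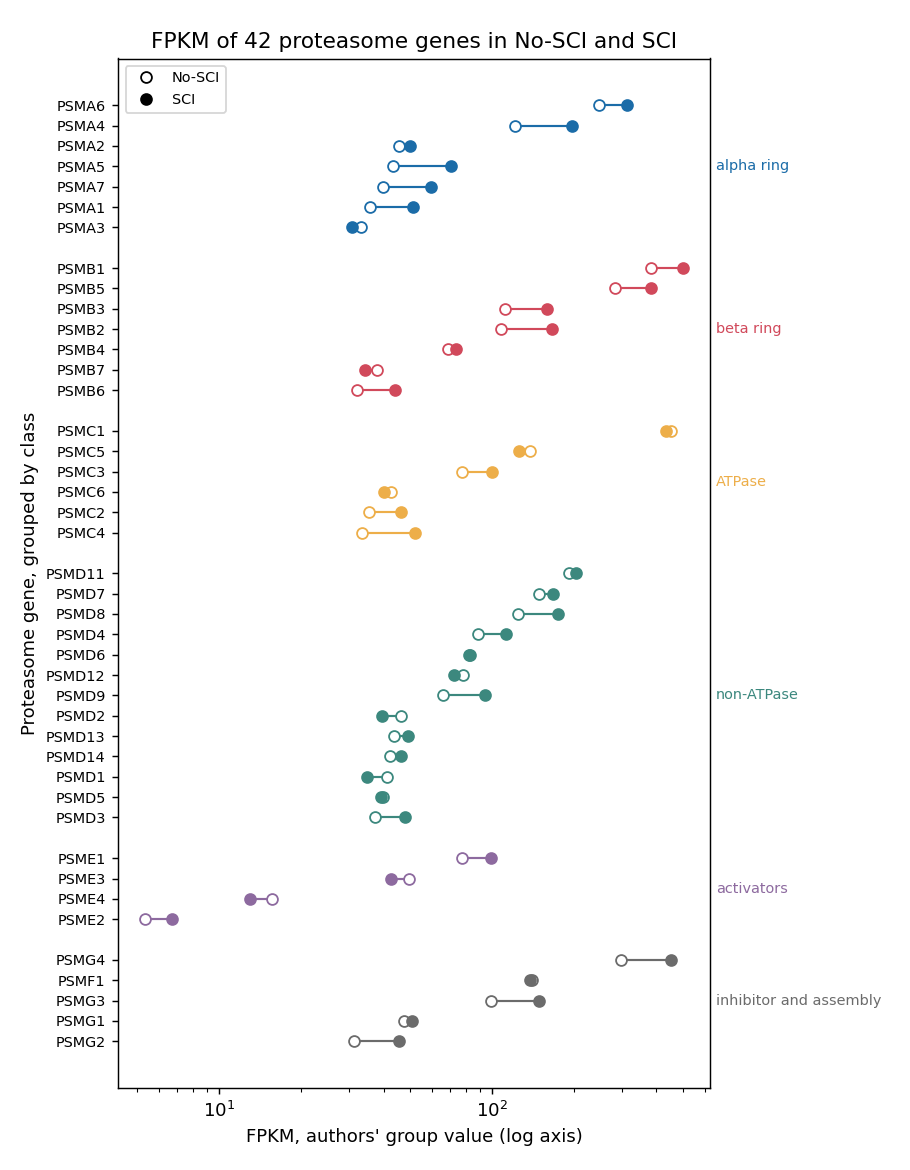
FPKM of the 42 proteasome genes on a log axis, 1 row per gene and grouped by class, with the No-SCI value as an open point and the SCI value as a filled point (1 authors' value per group, so no error bars). Within the 20S rings 12 of 14 filled points lie to the right of the open ones, while within the ATPases 3 of 6 do.

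The genes of the 20S core were mostly higher in SCI. Of its 14 genes 12 were above 0 in log2 ratio, where 43.7% of all entries were. At least 1.3-fold higher in SCI were 9 (64.3%), where 24.6% of all entries were. The median log2 ratio of the 14 was 0.45. Their summed FPKM went from 1587 to 2127, a ratio of 1.34.

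The alpha ring forms the outer gate of the barrel. Its median log2 ratio was 0.52, and 4 of its 7 genes (57.1%) were at least 1.3-fold higher, where 24.6% of all entries were. PSMA5 went from 43.5 to 70.6 FPKM and PSMA4 from 121 to 196 FPKM, both 1.62-fold. They had the largest ratios of all 42 genes. PSMA7 went from 39.8 to 59.5 FPKM (1.49-fold) and PSMA1 from 35.8 to 51.4 FPKM (1.43-fold). PSMA6, the most abundant alpha subunit, moved from 247 to 312 FPKM (log2 ratio 0.34). PSMA2 was closer to even, with 45.5 and 49.9 FPKM. PSMA3, the least abundant alpha subunit, was the exception in direction, with 33.2 FPKM in No-SCI and 30.6 in SCI. Its log2 ratio of -0.12 was close to that of the median entry.

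The beta ring had a median log2 ratio of 0.44, with 5 of 7 genes (71.4%) at least 1.3-fold higher, where 24.6% of all entries were. Among the catalytic subunits, PSMB5, which cuts after hydrophobic residues, moved from 281 to 381 FPKM (log2 ratio 0.44). PSMB6, which cuts after acidic residues, moved from 32.0 to 43.9 FPKM (log2 ratio 0.46). PSMB7, which cuts after basic residues, had 37.7 and 34.3 FPKM, a log2 ratio of -0.14, or -0.02 after centring. PSMB5 and PSMB6 were thus past the minimum, while PSMB7 was short of it and close to the median entry. The FPKM of PSMB5 was 8.77 times that of PSMB6 in No-SCI, while the barrel holds the 2 proteins in equal numbers. The FPKM is of RNA and compares different genes, so it does not give the ratio of the proteins. All 4 subunits without a catalytic site had a ratio above 0. PSMB2 went from 108 to 165 FPKM (1.53-fold) and PSMB3 from 111 to 159 FPKM (1.43-fold). PSMB1 went from 383 to 500 FPKM (1.31-fold), just past the minimum. PSMB4 was near even, with 68.9 and 73.7 FPKM.

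The subunits that replace the catalytic ones in the immunoproteasome, the form that interferon induces in antigen presentation, give a scale for these levels. PSMB8 takes the place of PSMB5, PSMB9 that of PSMB6, and PSMB10 that of PSMB7. PSMB5 was 4.87 times as abundant as PSMB8 in No-SCI and 5.11 times in SCI. PSMB6 and PSMB9 stood at nearly the same level in No-SCI (32.0 and 32.2 FPKM), and in SCI the ratio was 1.26. PSMB7 was 2.42 times as abundant as PSMB10 in No-SCI and 1.54 times in SCI. PSMB10 was the one of these 3 immunoproteasome subunits past the minimum, from 15.6 to 22.2 FPKM (log2 ratio 0.51). PSMB8 went from 57.7 to 74.5 FPKM and PSMB9 from 32.2 to 34.8 FPKM.

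In the 19S particle the ratios were smaller and divided. The 17 stable subunits (6 ATPases and 11 PSMD proteins) had a median log2 ratio of 0.13, and 3 (17.6%) were at least 1.3-fold higher, where 24.6% of all entries were. After centring the count was 6 of 17, where 30.2% of all entries were, so the order of these shares depends on the scaling. Their summed FPKM went from 1701 to 1825, a ratio of 1.07 where that of the 20S core was 1.34. No test could be made of that difference between the particles. Such sums rest largely on a few abundant genes. PSMC1 alone held 452 FPKM of the 19S sum in No-SCI and 432 in SCI, and PSMB1 383 and 500 FPKM of the 20S sums.

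The ATPases had a median log2 ratio of 0.15. PSMC4 moved from 33.3 to 52.2 FPKM (log2 ratio 0.65) and PSMC2 from 35.3 to 46.4 FPKM (log2 ratio 0.39). PSMC3 fell short of the minimum, with 77.4 and 99.6 FPKM (1.29-fold). The other members of the hexamer were slightly lower in SCI. PSMC1 had 452 and 432 FPKM, PSMC5 138 and 126 FPKM, and PSMC6 42.4 and 40.1 FPKM. Their log2 ratios were -0.06, -0.13 and -0.08, and after centring on the median of all entries that of PSMC5 alone stayed below 0, at -0.02. The levels within this ring spanned 13.5-fold in No-SCI and 10.8-fold in SCI, with PSMC1 at the top of both.

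The non-ATPase class had a median log2 ratio of 0.13. Of its 13 genes 9 (69.2%) were above 0, where 43.7% of all entries were. At least 1.3-fold higher were 2 (15.4%), a smaller share than the 24.6% of all entries. After centring 4 of the 13 were, where 30.2% of all entries were. PSMD8, a subunit of the lid, went from 124 to 174 FPKM (1.40-fold). PSMD9, a chaperone that helps to assemble the ATPase ring and leaves the finished particle, went from 65.9 to 94.4 FPKM (1.43-fold). PSMD5, another chaperone of that ring, was even, with 39.9 and 39.1 FPKM.

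The stable subunits were also divided into lid and base, a split chosen after values were seen, and no difference between them was tested. Of the 8 PSMD genes of the lid, which carries the enzyme that removes ubiquitin, 7 had a ratio above 0, where 43.7% of all entries did, with a median log2 ratio of 0.15. After centring 8 of the 8 did, where 50% of all entries did. At least 1.3-fold higher was 1 of the 8 (12.5%), a smaller share than the 24.6% of all entries. After centring 2 of the 8 were, where 30.2% of all entries were. PSMD14, that enzyme, had 42.1 FPKM in No-SCI and 46.2 in SCI, and PSMD7, its inactive partner, 148 and 166 FPKM. PSMD11, the most abundant lid subunit, had 191 and 204 FPKM. PSMD3 had 37.4 and 47.8 FPKM, PSMD13 43.7 and 49.1, and PSMD6 82.3 and 83.1. PSMD12 was the one of these 8 below 0, with 78.2 and 72.2 FPKM, and its sign changed on centring.

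In the base, which joins the lid to the barrel, 4 of 9 genes (44.4%) had a ratio above 0, near the 43.7% of all entries. After centring 6 of the 9 did, where 50% of all entries did. At least 1.3-fold higher were 2 of the 9 (22.2%), where 24.6% of all entries were. After centring 4 of the 9 were, where 30.2% of all entries were, so by this count the base was not below the lid. PSMD1 and PSMD2, the large scaffold subunits, were both lower in SCI. PSMD1 had 41.2 and 34.7 FPKM, a log2 ratio of -0.25, and PSMD2 had 46.2 and 39.3 FPKM, a log2 ratio of -0.23. Both kept a negative ratio after centring, at -0.13 and -0.12. PSMD4, a receptor for ubiquitin chains, went the other way, from 88.4 to 113 FPKM (log2 ratio 0.35).

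**Figure D3:**
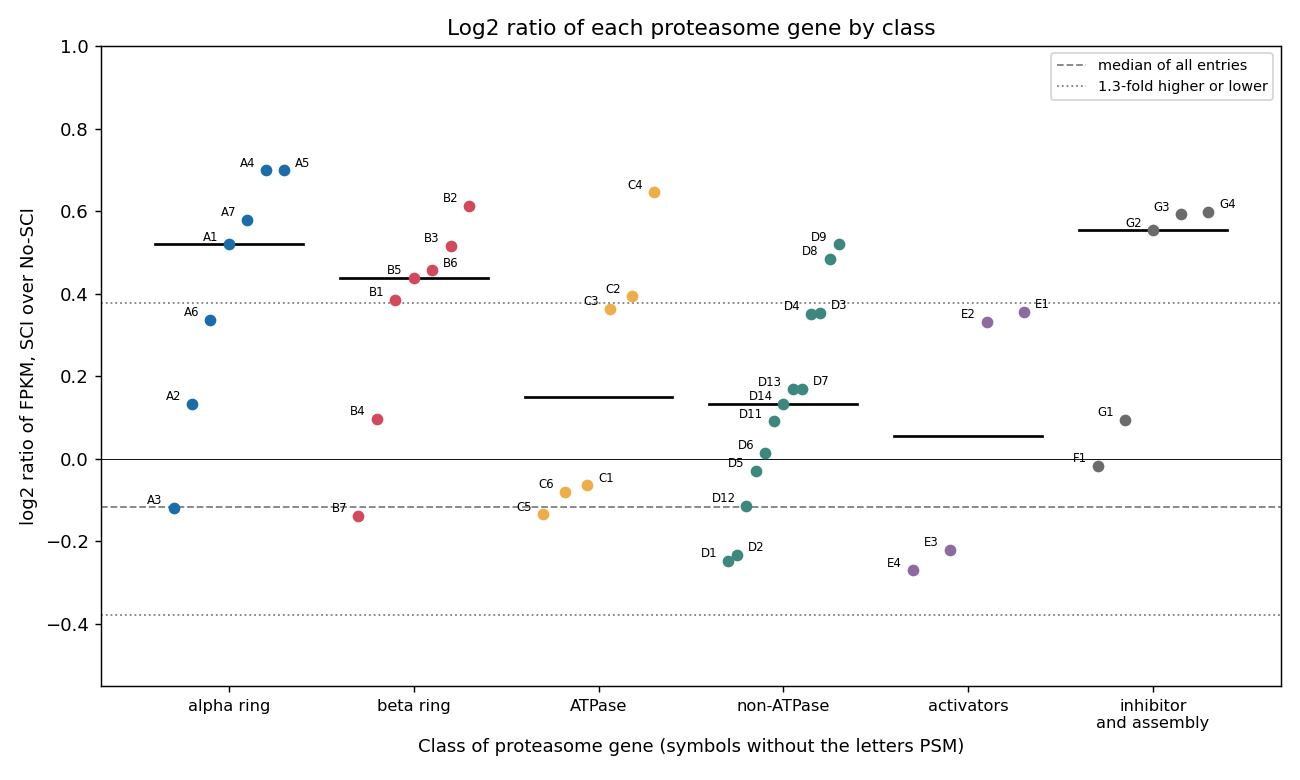
Log2 ratio of FPKM, SCI over No-SCI, of each of the 42 proteasome genes by class (points, labelled with the symbol without the letters PSM), with the class median as a black bar, the median of all entries as a dashed line and the 1.3-fold limits as dotted lines. The alpha ring, the beta ring and the inhibitor and assembly class have class medians of 0.44 or more. The ATPases and non-ATPases have class medians of 0.15 and 0.13, and no point lies below the lower limit.

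The activators open the barrel without the 19S particle. None of the 4 passed the minimum, where 24.6% of all entries were at least 1.3-fold higher and 35.7% at least 1.3-fold lower. After centring 2 of the 4 were at least 1.3-fold higher, where 30.2% of all entries were. Their median log2 ratio before centring was 0.06. PSME1 and PSME2, which form a ring together and are induced by interferon, had log2 ratios of 0.36 and 0.33. PSME1 went from 77.7 to 99.4 FPKM and PSME2 from 5.35 to 6.74 FPKM, so the partners lay 14.5-fold apart in level in No-SCI. The value of PSME1 is uncertain where its reads could be divided with the pseudogene PSME1-PS1. PSME3, the nuclear activator, had 49.7 FPKM in No-SCI and 42.7 in SCI, and PSME4, the large activator that binds acetylated histones, had 15.6 and 13.0 FPKM. Their log2 ratios, -0.22 and -0.27, stayed below 0 after centring.

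The class of the inhibitor and the assembly chaperones had the highest class median, a log2 ratio of 0.55. PSMG1 with PSMG2, and PSMG3 with PSMG4, form dimers on which the alpha ring is put together. PSMG4 went from 298 to 451 FPKM and PSMG3 from 98.8 to 149 FPKM, both 1.51-fold. PSMG2 went from 31.1 to 45.7 FPKM (1.47-fold), while its partner PSMG1 was near even with 47.5 and 50.7 FPKM. POMP, a chaperone of the beta ring from a list of proteasome-associated genes, also had a higher value, 329 FPKM in No-SCI and 521 in SCI (1.58-fold). PSMF1, which binds the barrel and inhibits it in vitro, was even, with 139 and 138 FPKM.

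The levels of the genes limit each other in 1 respect. Of the 42 genes, 8 carry values of 7 significant digits (PSMB1, PSMD8, PSMD11, PSMD12, PSME4, PSMF1, PSMG3 and PSMG4), where a Cuffdiff estimate has 6. Such a value can be a sum over several entries of a symbol, and then its level relative to other subunits depends on how many were summed. Over all entries 58.6% carry more than 6 digits. Among the 34 proteasome genes with at most 6 digits, 12 (35.3%) were at least 1.3-fold higher, since PSMB1, PSMD8, PSMG3 and PSMG4 drop out, and the median log2 ratio was again 0.33.

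The start regions of 38 of the 42 genes were found in the RefSeq promoter set of the GRCr8 build (250 bases before the start and 50 after it). PSMA7, PSMD6, PSMD12 and PSMD14 had no match. Proteasome genes are known targets of the transcription factor NFE2L1, which binds antioxidant response elements. The letters TGACNNNGC, the core of that element, occurred on either strand in 8 of 38 (21.1%), against 14.7% of the promoters of genes in the table and 12.1% of all promoters of this length. Among the beta ring they were in 3 of 7, and among the ATPases in 0 of 6. The 7 promoters in which the match lies before the start are shown for comparison of the element and its place, with the match in capitals, read on the strand of the gene. A match that starts with GC is on the opposite strand.
PSMB5 (chr15:32047421-32047449, minus strand): cgtgaagctgTGACGTCGCggcgttgccc
PSMB6 (chr10:55737854-55737882, plus strand): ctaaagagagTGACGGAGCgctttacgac
PSMB2 (chr5:144254980-144255008, plus strand): cccgcgccaaTGACCGGGCggtcgcatat
PSMA3 (chr6:95219727-95219755, plus strand): tctgtggcctGCCGGGTCAgcaccatgag
PSMD9 (chr12:39018323-39018351, minus strand): gagtttccggTGACCTCGCcccacctcca
PSMD1 (chr9:94157796-94157824, plus strand): accagatctaTGACCTCGCgagaattata
PSME4 (chr14:108706578-108706606, plus strand): ggagaaagccGCTGGGTCAcctcctcgcc

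The capitals begin 60 bases before the start in PSMB5, 24 in PSMB6, 68 in PSMB2, 12 in PSMA3, 77 in PSMD9, 165 in PSMD1 and 55 in PSME4. PSMD9 holds another match 124 bases before its start, on the opposite strand, and the match in PSMD3 and another in PSMD1 lie after the start. The genes with the match were PSMB2, PSMB5, PSMB6 and PSMD9, all at least 1.3-fold higher in SCI, PSMD3 at a log2 ratio of 0.35, and PSMA3, PSMD1 and PSME4, all with ratios below 0. The median log2 ratio was 0.40 for the 8 with a match and 0.33 for the 30 without.

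Letters of other elements known from such promoters were also searched. CCAAT, the box bound by NF-Y, was in 18 of 38 (47.4%, against 37.6% for genes in the table), including 5 of 6 in the alpha ring. CCGGAAG, bound by ETS factors, was in 14 of 38 (36.8%, against 16.7%), and GGGCGG, the GC box, in 28 of 38 (73.7%, against 60.3%). The 14 genes with CCGGAAG had a median log2 ratio of 0.10 and the 24 without it 0.41. The order was the other way for the GC box, with 0.35 for the 28 genes that hold it and 0.17 for the 10 that do not, and the medians for CCAAT were 0.36 with it and 0.33 without. None of these differences in median was tested or separated from class. CCGGAAG was in 1 of 6 promoters of the alpha ring and 2 of 7 of the beta ring. It was in 3 of 6 of the ATPases, 4 of 10 of the non-ATPases, 2 of 4 of the activators and 2 of 5 of the inhibitor and assembly class. The motifs can overlap, both strands were read for each, and a match in these letters is not a site of binding.

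The genes of NFE2L1, NF-Y and their partners were mostly lower in SCI, while those of ETS factors and of factors that bind the GC box were not listed. NFE2L1 had 137 FPKM in No-SCI and 56.3 in SCI, a log2 ratio of -1.29. Of 11 listed genes for NFE2L1, NFE2L2, their partners and regulators and NF-Y, 9 had a ratio below 0, where 56.3% of all entries did, with a median of -0.46. At least 1.3-fold lower were 6 of them (54.5%), where 35.7% of all entries were. The 6 include the regulators BACH1 and KEAP1, with log2 ratios of -0.62 and -0.46, so the count is not of activators alone. After centring 8 of the 11 were below 0 and 5 at least 1.3-fold lower, where 30.3% of all entries were. NFYA and NFYB, subunits of NF-Y, had log2 ratios of -0.85 and -0.99, and NFYC was even (99.7 and 99.6 FPKM). MAFF, a small partner of NFE2L1 and NFE2L2, was the one at least 1.3-fold higher, with 40.4 FPKM in No-SCI and 133 in SCI. The other small partners listed, MAFG and MAFK, had log2 ratios of 0.18 and -0.85, so the partners were not mostly lower. DDI2, the protease that activates NFE2L1, had 15.8 and 22.4 FPKM.

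Elsewhere in the ubiquitin pathway the lists were mixed. Of 12 proteasome-associated genes 5 (41.7%) were at least 1.3-fold higher and 2 (16.7%) at least 1.3-fold lower, where 24.6% and 35.7% of all entries were, and their median log2 ratio was 0.26. UCHL5 and USP14, deubiquitinases that dock on the 19S particle, stood on opposite sides. UCHL5 went from 84.4 to 121 FPKM and USP14 from 59.1 to 44.8 FPKM. ADRM1, the ubiquitin receptor on which UCHL5 docks, was 1.33-fold higher. ZFAND5 and AKIRIN2 had log2 ratios of 0.71 and 0.78, and ZFAND2A, a stress-induced partner of the 19S particle, -1.60. SEM1, a small lid subunit with another symbol, had 140 and 159 FPKM.

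Of 8 shuttle factors, which carry tagged proteins to the proteasome or to autophagy, 2 (25%) were at least 1.3-fold higher and 3 (37.5%) lower, shares near the 24.6% and 35.7% of all entries. UBQLN1 had a log2 ratio of 0.64, UBQLN4 of -1.47, TAX1BP1 of -0.92 and SQSTM1, the most abundant of the list, of -0.42. Of 14 genes for the unfoldase p97 (VCP) and its cofactors 0 were at least 1.3-fold higher and 3 (21.4%) lower, where 24.6% and 35.7% of all entries were. Their median log2 ratio of -0.16 was near the -0.12 of all entries. VCP had 60.5 FPKM in No-SCI and 52.1 in SCI.

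**Figure D4:**
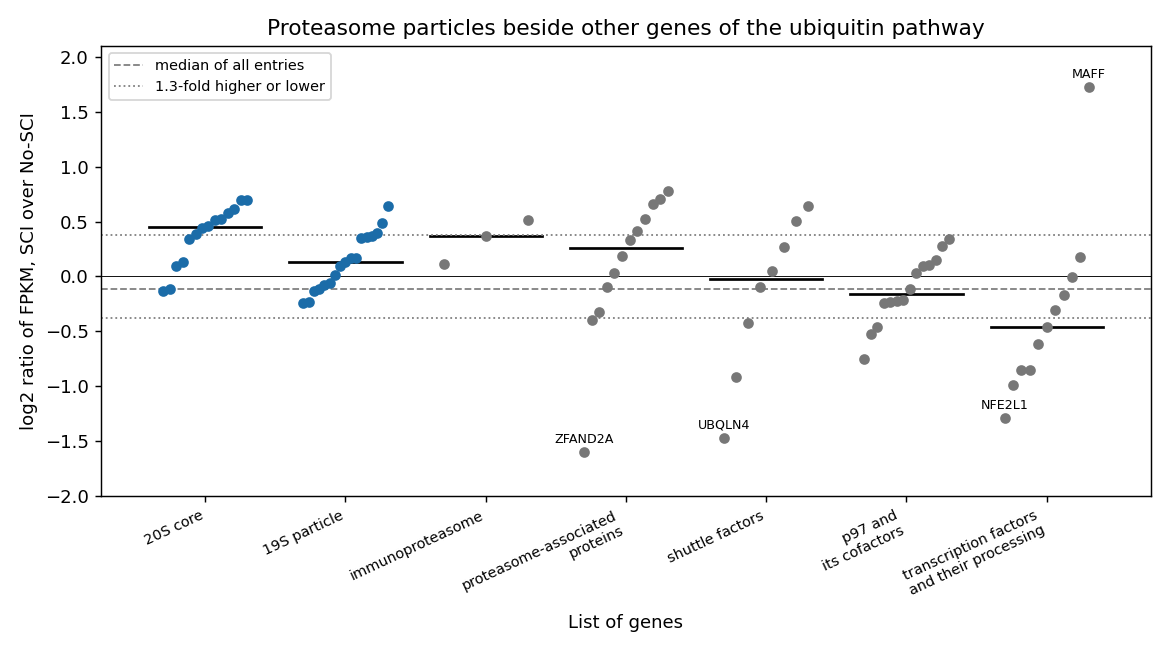
Log2 ratio of FPKM, SCI over No-SCI, for the stable subunits of the 20S core and 19S particle (blue points) beside 5 lists of other genes of the ubiquitin pathway (grey points), with list medians as black bars, the median of all entries as a dashed line and the 1.3-fold limits as dotted lines. Genes beyond 1 in either direction are labelled. The 20S core has a median of 0.45, the p97 list of -0.16 and the list of transcription factors of -0.46.

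Marker genes of several cell types differed by more between the groups than the proteasome genes did. These markers were chosen with earlier results of these data known, so their counts are a description only. Of all entries 43.7% had a ratio above 0 and 56.3% a ratio below it. All 7 markers of meningeal fibroblasts were higher in SCI, with a summed FPKM of 49.7 in No-SCI and 800 in SCI, and all 6 of skeletal muscle were lower, with 382 and 29.1 FPKM. The 6 listed oligodendrocyte markers of 7 were all lower, from a sum of 87911 to 48156 FPKM. The 6 listed markers of microglia and macrophages of 7 divided evenly, with sums of 950 and 1007 FPKM, and the 5 neuronal and axonal ones of 7 went from 3633 to 2711 FPKM, with 2 above 0. Of the 7 astrocyte markers 3 are listed, with sums of 5900 and 5644 FPKM. GLUL made up most of these sums, with 5858 and 5624 FPKM, while ALDH1L1 and SLC1A2 had log2 ratios of -1.44 and -1.01. GFAP, AQP4, S100B and SLC1A3, which define that cell type, have no entry here. Of 4 endothelial markers 3 are listed (sums of 22.5 and 28.7 FPKM), and of 5 blood markers 3 (537 and 605 FPKM). HBB made up most of the blood sums, with 490 and 464 FPKM. S100A8 went from 32.4 to 94.1 FPKM and S100A9 from 14.3 to 46.6 FPKM. The part of these shifts in the proteasome values was not tested. In such bulk RNA, fewer cells or processes of a type and less RNA in each cannot be told apart.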

How the data were processed

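Strand-specific total RNA of the acellular fraction was sequenced. Per the labels and methods, the authors downsampled the reads, aligned them to rn6 with STAR 2.5.4b and ran Cuffdiff 1.3.0 with upper quartile normalization. The authors' deposited FPKM values, 1 for No-SCI and 1 for SCI per entry, were the values used. The deposited p-values and q-values, the fold change ratio and the log2 fold change are the authors' own comparison and were not used. No value lies below 1, so ratios of low genes may be understated. The depth behind each value is unknown.

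The log2 ratio of SCI over No-SCI needed no pseudocount. For the 13 symbols listed again, the entry with the larger mean was taken. Every member was named, and of the other lists the genes past 1.3-fold and the 3 most abundant could be. VCP, NFYC, MAFG and the split into lid and base were chosen after values were seen. 1 further list of genes is not reported here. Members and lists were chosen with earlier results of these data known. Alternatives were other scalings, pseudocounts of 1 and 0.1, a mean of at least 10 FPKM, and folds of 1.5 and 2. The counting step was tested on simulated data. Python 3.11.15, numpy 2.4.6, pandas 2.3.3 and matplotlib 3.10.9 were used.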

Additional observations from a re-analysis of the deposited data

How the results depend on the processing

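The table has 1 value per group and no value per library, so no replicate could be left out and no test is behind any count. No paired analysis was possible because the columns carry no replicate. The median log2 ratio of the proteasome genes, 0.33, stayed above 0 under every alternative tried. It was 0.45 when centred on the median of all entries, 0.44 when both groups were scaled to the same upper quartile, 0.38 when scaled to the same total, 0.31 with a pseudocount of 1, and 0.34 with genes of a mean of at least 10 FPKM and with stable 20S and 19S subunits alone. The mean in place of the median was 0.24. The scalings moved every ratio up and a pseudocount keeps its sign, so these could not have brought the median below 0. Alternatives chosen after seeing the data gave 0.34 with PSMC3IP, PSME1-PS1 and PSME3IP1 counted and 0.35 with 1 subtracted from every value. The count of genes higher in SCI was 16 at 1.3-fold, 6 at 1.5-fold and 0 at 2-fold, because a larger fold was asked, and centring gave 22. It was 12 of 31 among the stable 20S and 19S subunits and, in an alternative chosen after seeing the data, 12 of the 34 genes with values of at most 6 significant digits, both because fewer genes were counted. The count of genes lower was 0 under every alternative tried. The scalings moved every ratio up, pseudocounts shrink ratios, and larger folds or fewer genes cannot add to it. Most of these alternatives could therefore not have changed this count. Centred, the class medians were 0.64 for the alpha ring, 0.56 for the beta ring, 0.27 for the ATPases, 0.25 for the non-ATPases, 0.17 for the activators and 0.67 for the inhibitor and assembly class. The signs of PSMC1, PSMC6, PSMD5, PSMD12 and PSMF1 changed. The log2 ratio of the summed FPKM, 0.29, was 0.39 at the same upper quartile and 0.33 at the same total. With a pseudocount of 1, the log2 ratio of PSMB5 to PSMB8 was 2.26 in No-SCI and 2.34 in SCI, that of PSMB6 to PSMB9 in SCI 0.33, and that of PSMB7 to PSMB10 1.22 and 0.60.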
